A study of Mus musculus with 12 samples.

Results

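The genes of hepatic fatty acid synthesis were followed through the day in mouse liver mRNA, 10 in number: Srebf1, Acly, Acaca, Acacb, Fasn, Me1, Elovl5, Elovl6, Scd1 and Thrsp. They were chosen by name for their roles in this pathway. All 10 were found among the 20069 genes of the table, Me1 under its older symbol Mod1, and all 10 were among the 10198 genes with at least 1 value above 8 rpbp (reads per base pair, the mean coverage of a base in the exons of a gene). Livers were taken from male wild-type C57BL/6 mice, adults of 3 to 6 months, which had been kept for at least 2 weeks in 12 hr of light and 12 hr of dark. Poly(A) RNA was sequenced at 6 times of day, at Zeitgeber times ZT2, ZT6, ZT10 (light) and ZT14, ZT18, ZT22 (dark), where ZT0 is lights on and ZT12 lights off, in 2 independent series, so that each time point has 1 sample per series and the study has 12. There was no genetic or dietary treatment, food intake is not part of the data used here, and lights off serves as the reference for feeding because mice eat mainly at night.

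The liver turns surplus sugar into fat. Citrate exported from mitochondria is cleaved to acetyl-CoA, acetyl-CoA is carboxylated to malonyl-CoA, and fatty acid synthase joins these units to palmitate with reducing power from NADPH, after which elongases and desaturases make longer and unsaturated chains. Transcription of these genes is raised by feeding and insulin through SREBP-1c, a product of Srebf1, and by carbohydrate through ChREBP, and Thrsp (Spot 14) is a classical gene responsive to thyroid hormone and carbohydrate.

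All 10 genes were lowest at ZT2, in the mean and in each series alone, and all 10 were at least 2-fold higher at ZT6 than at ZT2 in both series. The ratio of ZT6 to ZT2 was 41.9 and 24.4 for Scd1, 11.2 and 12.4 for Thrsp, 9.61 and 6.17 for Fasn, and 2.79 and 3.24 for Acacb, the first value being that of series 1 as in all pairs of values that follow. Of all expressed genes, 3.08% were that much higher in both series. After ZT6 the 2 series went apart: at ZT10, 9 of the 10 genes were at least 1.5-fold higher in series 2 (5.19% of all expressed genes), and Srebf1 was close in both (323 and 309.6 rpbp). Of the 10 genes only Thrsp was called rhythmic over 24 hr (19.2% of all expressed genes were), with a fitted peak at 11.1 hr, 0.876 hr before lights off. It came 1.44 hr after that of Srebf1, itself not called rhythmic, a lag that was 0.213 hr without the ZT6 sample of series 1 and 2.38 hr without its ZT2 sample.

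Stretches of promoter are shown for 3 of the genes: Thrsp, the gene with the 24 hr rhythm, Fasn, the central enzyme, and Elovl5, the one gene with an E-box in the window searched. They are the 170 bases before the RefSeq transcription start in GRCm38.p6 (the expression values rest on mm9, and these positions are not comparable with the mm9 positions given for the genes), written 5′ to 3′ on the strand of the gene, with CCAAT boxes (CCAAT, or ATTGG on the other strand) and the E-box CACGTG in capitals.
Thrsp, chr7:97417551-97417720, minus strand: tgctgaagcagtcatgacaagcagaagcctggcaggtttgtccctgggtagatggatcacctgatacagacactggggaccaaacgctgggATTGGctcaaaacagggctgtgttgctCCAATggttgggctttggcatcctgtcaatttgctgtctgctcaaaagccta
Fasn, chr11:120824548-120824717, minus strand: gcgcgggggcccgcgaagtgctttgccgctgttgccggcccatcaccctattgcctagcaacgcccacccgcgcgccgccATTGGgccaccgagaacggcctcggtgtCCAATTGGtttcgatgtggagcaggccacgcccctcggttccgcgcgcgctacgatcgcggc
Elovl5, chr9:77917195-77917364, plus strand: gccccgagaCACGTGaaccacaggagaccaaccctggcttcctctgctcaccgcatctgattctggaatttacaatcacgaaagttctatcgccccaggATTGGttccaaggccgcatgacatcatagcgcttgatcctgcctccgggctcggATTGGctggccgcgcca

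RefSeq windows of 250 bases before to 50 after the start were at hand for 9 of the 10 genes, as 12 windows, and Scd1 had none. A RefSeq start need not be the first of its gene. The Me1 window at chr9:86687228-86687527 lies downstream of its other window at chr9:86695865-86696164. The Acaca window (chr11:84195188-84195487) may also lie inside its gene, which was not checked. A motif found or missing thus refers to these windows only. CCAAT was found on either strand in 7 of the 9 genes and 8 of the 12 windows, against 37.4% of the 32851 mouse windows of this length. In Thrsp the boxes began 79 and 52 bases before the start, and in Fasn 90, 62 and 59 bases before it, where the last pair overlaps. The E-box CACGTG was found in Elovl5 only, 161 bases before the start (7.15% of all windows). The GC box GGGCGG was found in Acly, Me1 and Srebf1 (35.7% of all windows). No window of these genes held the letters of the sterol response element TCACNCCAC (1.24% of all windows), of the relaxed carbohydrate response element (1.09%), of the D-box TTANGTAA (2.32%), of the ROR element (0.219%) or of the LXR element DR4 (0.0152%). The full carbohydrate response element, a pair of E-boxes 5 bases apart, was in none of the 32851 windows. These matches describe letters in short windows and say nothing of binding.

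Srebf1 codes for the transcription factors SREBP-1a and SREBP-1c, whose isoforms are merged in the deposited value. It lies on chr11 from 60012591 to 60036083 in mm9, on the minus strand, and its value covers 18 merged exons of 5634 bases, of which 109 (1.93%) are shared with Rai1 in the annotation, a gene that reached 6.92 rpbp at most. Srebf1 was at 106 and 129.8 rpbp (ZT2), 413 and 335 (ZT6), 323 and 309.6 (ZT10), 333 and 264 (ZT14), 198 and 138 (ZT18) and 209.9 and 285 (ZT22). Both ZT2 values were below the other 10, and both series were highest at ZT6. Srebf1 differed among the 6 time points (limma on log2(rpbp + 1), adjusted p = 0.00877). Its 24 hr component took up a share of 0.45 of its variance (the F24 score), just at the limit of 0.45, with a permutation p of 0.0731, and the gene was not called rhythmic.

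Acly, ATP citrate lyase, makes the cytosolic acetyl-CoA. It is on chr11 from 100337667 to 100389314 on the minus strand (30 merged exons, 5280 bases). Its values were 85.5 and 87.1 rpbp (ZT2), 313 and 248 (ZT6), 177 and 418 (ZT10), 167 and 178 (ZT14), 189 and 244 (ZT18) and 254 and 156 (ZT22). The highest value of series 1 was at ZT6 and that of series 2 at ZT10, and the ZT2 pair lay below all other values. Acly missed the threshold for a difference among time points (limma, adjusted p = 0.0629).

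Acaca and Acacb code for the acetyl-CoA carboxylases ACC1 and ACC2. ACC1 supplies malonyl-CoA for synthesis, and ACC2 sits at the mitochondrion, where its malonyl-CoA holds back fatty acid uptake. Acaca (chr11 from 83943174 to 84215153, plus strand, 61 merged exons) was at 15.9 and 16 rpbp (ZT2), 53.8 and 40.9 (ZT6), 31.6 and 56.9 (ZT10), 33.6 and 27.1 (ZT14), 27.4 and 24.9 (ZT18) and 35.4 and 24.5 (ZT22). Acacb (chr5 from 114596544 to 114700770, plus strand, 55 merged exons) was at 17.4 and 12.6 rpbp (ZT2), 48.5 and 40.6 (ZT6), 28.8 and 63.4 (ZT10), 17.4 and 15.6 (ZT14), 27.7 and 39.6 (ZT18) and 31.0 and 17.9 (ZT22). Their mean levels per base were similar (32.3 and 30.0 rpbp over the 12 samples), but at ZT14 Acacb was back near its ZT2 level and Acaca was not. Acacb was the only one of the 10 genes whose ZT2 values overlapped with later values, through ZT14. Acaca differed among time points (limma, adjusted p = 0.0369), and Acacb missed the threshold (adjusted p = 0.0531).

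Fasn, fatty acid synthase, is on chr11 from 120667254 to 120685492 on the minus strand, with 42 merged exons of 9849 bases. Fasn was at 43.1 and 45.6 rpbp (ZT2), 414 and 281 (ZT6), 138 and 462 (ZT10), 234 and 198 (ZT14), 168 and 102 (ZT18) and 218 and 155 (ZT22). The ZT2 samples agreed closely and were the lowest, while the ZT10 samples differed by more than 3-fold. Fasn differed among time points (limma, adjusted p = 0.0289) and had an F24 of 0.338 (permutation p = 0.164).

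Me1, the cytosolic malic enzyme, yields NADPH for the synthesis. Me1 (chr9 from 86474970 to 86589947, minus strand, 15 merged exons) was at 60.1 and 59.9 rpbp (ZT2), 446 and 405 (ZT6), 174 and 650.4 (ZT10), 167 and 91.3 (ZT14), 226 and 179.5 (ZT18) and 311 and 116 (ZT22). The ZT2 and ZT6 pairs were nearly equal, and the ZT10 pair was the widest apart. Me1 missed the threshold for a difference among time points (limma, adjusted p = 0.0663).

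Elovl6 lengthens palmitate to stearate, and Elovl5 lengthens polyunsaturated chains. Elovl6 (chr3 from 129235304 to 129341413, plus strand, 5 merged exons) was at 23.9 and 21.6 rpbp (ZT2), 165 and 151 (ZT6), 158 and 395 (ZT10), 138 and 90.8 (ZT14), 87.3 and 52.7 (ZT18) and 143 and 44.3 (ZT22). Elovl5 (chr9 from 77765171 to 77832326, plus strand, 10 merged exons) was at 282 and 151 rpbp (ZT2), 994 and 938 (ZT6), 347 and 1222 (ZT10), 419.8 and 290.1 (ZT14), 735 and 455 (ZT18) and 1112 and 620.4 (ZT22). Elovl5 thus had a second high at the end of the night, and in series 1 its highest value was that at ZT22. Elovl6 differed among time points (limma, adjusted p = 0.0290), with an F24 of 0.443 just under the limit (permutation p = 0.0311), and Elovl5 did not pass (adjusted p = 0.0985, F24 0.0325).

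Scd1, stearoyl-CoA desaturase, makes oleate and had by far the highest level per base of the 10 genes. It is on chr19 from 44468941 to 44482199 on the minus strand, with 6 merged exons, and only uniquely mapped sequences were counted, so that stretches shared with its paralogues may be missing from its value. Scd1 was at 647 and 762 rpbp (ZT2), 27154 and 18548 (ZT6), 8948 and 23462 (ZT10), 2719 and 1506 (ZT14), 9259.8 and 6518 (ZT18) and 9231 and 5443 (ZT22). Both series fell after lights off and were higher again at ZT18, so that ZT14 was a second low. Scd1 differed among time points (limma, adjusted p = 0.00241), with more of its variance in a 12 hr component (0.478) than in the 24 hr component (0.325).

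Thrsp, on chr7 from 104561448 to 104566240 on the minus strand with 2 exons of 1277 bases, codes for a small protein that promotes fatty acid synthesis. Thrsp was at 174 and 162 rpbp (ZT2), 1954 and 2012 (ZT6), 4137 and 6239.7 (ZT10), 2293 and 2735 (ZT14), 1840.1 and 1471 (ZT18) and 1098 and 412 (ZT22). Both series rose to ZT10 and then fell at each later time point, and no other of the 10 genes did so in both. Only Thrsp and Srebf1 had their highest value at the same time in both series. Thrsp differed among time points (limma, adjusted p = 0.00150).

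**Figure D1:**
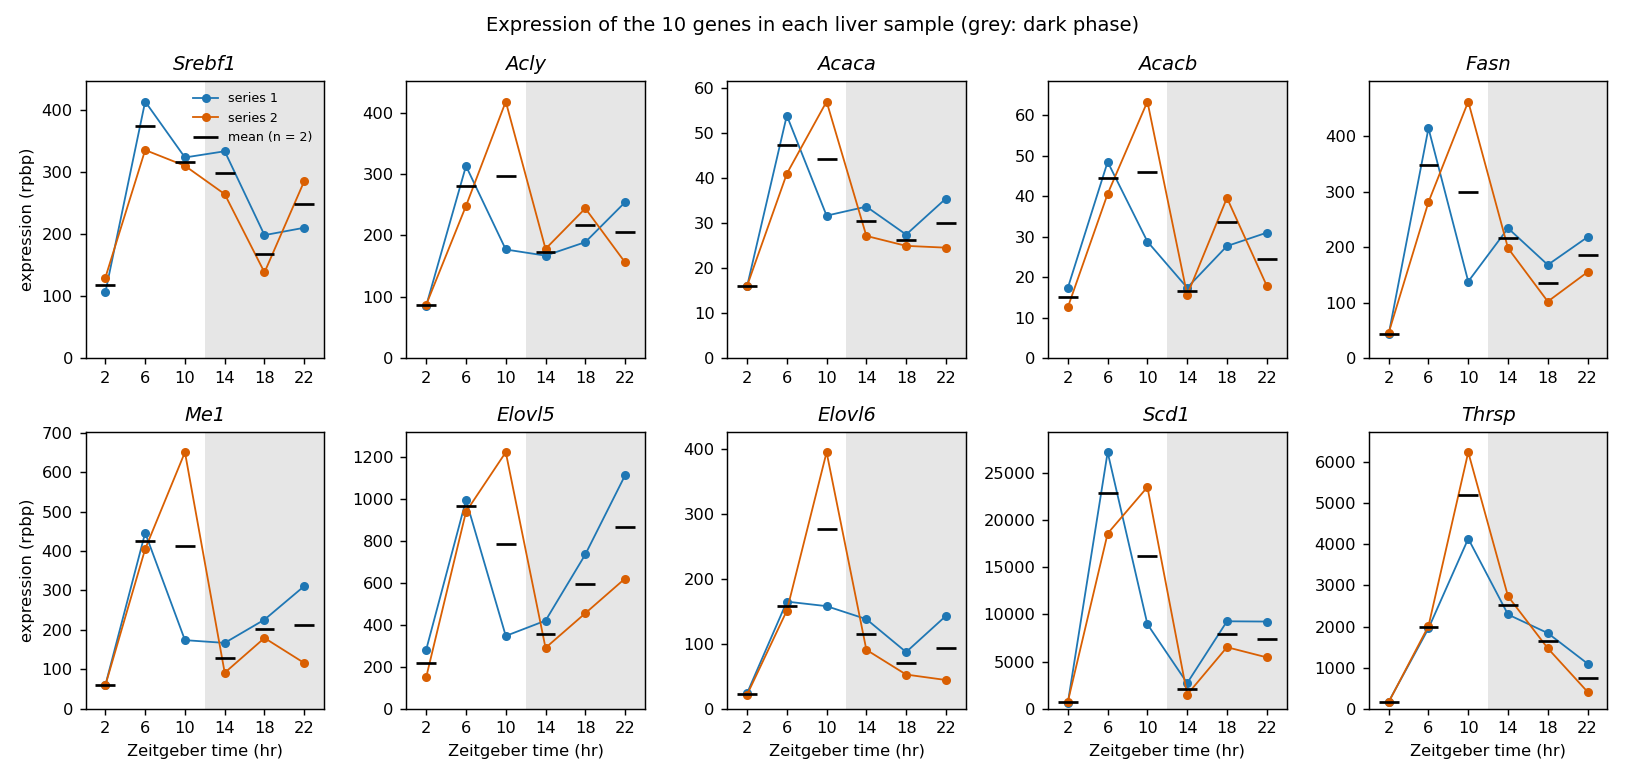
Expression in rpbp (vertical axis, from 0, a scale for each gene) against Zeitgeber time in hr for the 10 genes; points joined by lines are the samples of series 1 and series 2, black bars are the means of the 2 samples, and grey marks the dark phase. All 10 genes start at their lowest mean at ZT2, the series part at ZT10 in all but Srebf1, and Thrsp peaks at ZT10 in both (4137 and 6239.7 rpbp).

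In 9 of the 10 genes both ZT2 values lay below the other 10 values, against 9.58% of all expressed genes. The count was 9 or 10 when any 1 of the 12 samples was left out, a check chosen after seeing the data. ZT6 was above ZT2 by 7.42- and 6.76-fold in Me1, 6.91- and 6.98-fold in Elovl6, 3.52- and 6.21-fold in Elovl5, 3.90- and 2.58-fold in Srebf1, 3.66- and 2.85-fold in Acly, and 3.38- and 2.55-fold in Acaca. The median ratio of the 10 genes was 5.41 and 6.19, and that of all expressed genes 0.956 and 1.01. From the other side of ZT2, 5 of the 10 genes were at least 2-fold higher at ZT22 in both series (1.04% of all genes), namely Fasn, Elovl5, Elovl6, Scd1 and Thrsp. Scd1 had the widest difference here too, 14.3- and 7.15-fold.

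**Figure D2:**
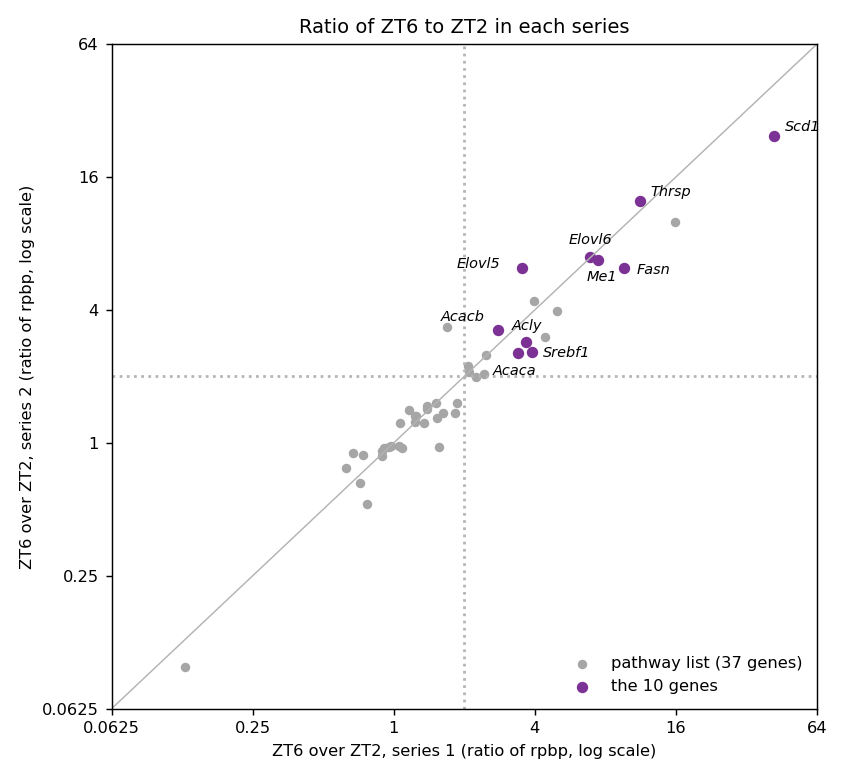
Ratio of the value at ZT6 to that at ZT2 in series 1 (horizontal) and series 2 (vertical), both on log axes, for the 10 genes (purple, named) and the 37 expressed genes of the pathway list (grey); dotted lines mark a ratio of 2 and the diagonal equal ratios. All 10 genes lie beyond 2 in both series. Acacb is lowest in series 1 (2.79), Acaca in series 2 (2.55), and Scd1 is highest in both (41.9 and 24.4).

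Of the 10 genes, 6 differed among the 6 time points after adjustment over all expressed genes (limma F-test on log2(rpbp + 1)): Srebf1, Acaca, Fasn, Elovl6, Scd1 and Thrsp. The share over all expressed genes was 17.6%. All 10 had an unadjusted p under 0.05, as had 37.2% of all genes. Without an expression minimum, which puts more genes into the adjustment, Acaca, Fasn and Elovl6 missed the threshold (adjusted p = 0.0785, 0.0644 and 0.0648). Single samples decided several of these calls. Without either of the ZT2 samples or either of the ZT6 samples, Acaca, Fasn and Elovl6 missed the threshold (adjusted p between 0.0601 and 0.133), and Acaca also missed it without any 1 of the samples at ZT14 or ZT18, and Fasn without either at ZT14. Without either of the ZT10 samples, Acly, Acacb, Me1 and Elovl5 passed it (adjusted p between 0.0127 and 0.0396), so that all 10 genes did. Acacb also passed without the ZT22 sample of series 1 (adjusted p = 0.0463). Scd1, Srebf1 and Thrsp passed with any 1 sample left out.

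The question of the day and night phases was addressed by setting the 6 dark samples against the 6 light samples. None of the 10 genes passed the test (limma, adjusted p between 0.735 and 0.967, and none with an unadjusted p under 0.05). Of all expressed genes 0.353% did after adjustment, and 13.0% had an unadjusted p under 0.05. For Fasn the light samples ran from 43.1 to 462 rpbp and the dark samples from 102 to 234, so that the dark values lay inside the light range, and the difference of dark minus light was 0.14 ± 0.58 (SE) on the log2 scale. For Thrsp it was 0.23 ± 0.91 and for Scd1 -0.35 ± 0.99. The light phase holds both the lowest samples of these genes and, in most, the highest, and 2 standard errors came to more than 1 log2 unit, a 2-fold change, for Fasn, Scd1 and Thrsp.

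Across lights off, from ZT10 to ZT14, no gene of the 10 rose by 1.5-fold in both series (1.84% of all expressed genes did). Acacb, Scd1 and Thrsp were at least 1.5-fold higher at ZT10 than at ZT14 in both series (1.58% of all expressed genes), by 1.66- and 4.06-fold, 3.29- and 15.6-fold, and 1.8- and 2.28-fold. Fasn went in opposite directions: its ZT14 value was 1.69 times that at ZT10 in series 1 and 0.429 times in series 2. Srebf1 moved little, with ZT14 over ZT10 at 1.03 and 0.854.

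Rhythms were scored by F24 with a p from 10000 random orders of the 12 values, and a gene was called rhythmic at p under 0.05, F24 above 0.45 and a highest value more than 1.5 times the lowest. Thrsp was the only one of the 10 genes called, against 19.2% of all expressed genes. Its F24 was 0.723 and its permutation p 1e-04, the smallest that these orders can give (adjusted p = 0.0115; 5.81% of all expressed genes passed after adjustment). In each series alone, over all 720 orders of 6 values, its F24 was 0.770 and 0.784 with exact p of 0.0833 and 0.0333, so that series 1 alone did not pass. The median F24 of the 10 genes was 0.331 against 0.310 for all expressed genes, while their median ratio of highest to lowest value was 9.40 against 1.64. Their median share in a 12 hr component was 0.314 against 0.202. F24 over both series is lowered by a difference between the series as well as by the shape of a profile, and these were not separated. In series 2 alone F24 was 0.678 for Fasn, 0.654 for Acaca, 0.649 for Elovl6, 0.581 for Me1, 0.528 for Acly and 0.521 for Scd1, and in series 1 alone 0.0930, 0.171, 0.304, 0.0384, 0.0216 and 0.215, and none of these passed the exact test over the 720 orders (p from 0.0833 to 0.967). The calls near the limit turned on single samples: Elovl6 was called on the log2 scale and without 1 of 4 samples (ZT10 or ZT22 of series 1, or ZT14 of either series), Fasn without the ZT10 sample of series 1 and Srebf1 without the ZT22 sample of series 2.

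The fitted peaks of all 10 genes came before lights off, between 6.71 and 11.1 hr. Thrsp was the latest and best defined: 11.5 and 10.9 hr in the 2 series, and 10.9 to 11.5 hr with each sample left out in turn. Srebf1 peaked at 9.68 hr (8.62 to 10.7 hr with each sample left out), 2.32 hr before lights off. Relative to Srebf1, the fitted peak was at 0.754 hr for Acly, 0.358 hr for Elovl6, -0.121 hr for Fasn, -0.387 hr for Acaca, -0.765 hr for Acacb, -1.09 hr for Me1, -1.99 hr for Scd1 and -2.98 hr for Elovl5. The sign of this difference turned between the series for Acly (-3.79 and 1.97 hr), Fasn (-1.37 and 0.871 hr), Acaca (-1.63 and 0.70 hr), Acacb (-4.48 and 1.2 hr) and Me1 (-5.13 and 0.111 hr), and for Elovl6 with single samples left out (-0.661 to 0.983 hr), so no order against Srebf1 can be read for these genes. Scd1 was earlier in both series (-3.77 and -0.396 hr) and with any 1 sample left out. Thrsp followed Srebf1 by 1.39 and 1.95 hr in the 2 series, and by 0.213 to 2.38 hr with each sample left out, over samples taken 4 hr apart. For Elovl5 neither a phase nor an order against Srebf1 has much meaning, since the series gave 22.7 and 8.80 hr, and in series 1 the gene was close to the opposite phase of Srebf1. The phases of Acly (6.33 and 10.9 hr), Acacb (5.65 and 10.1 hr) and Me1 (5.0 and 9.05 hr) also differed by about 4 hr or more between series. No test was made of a phase alone.

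**Figure D3:**
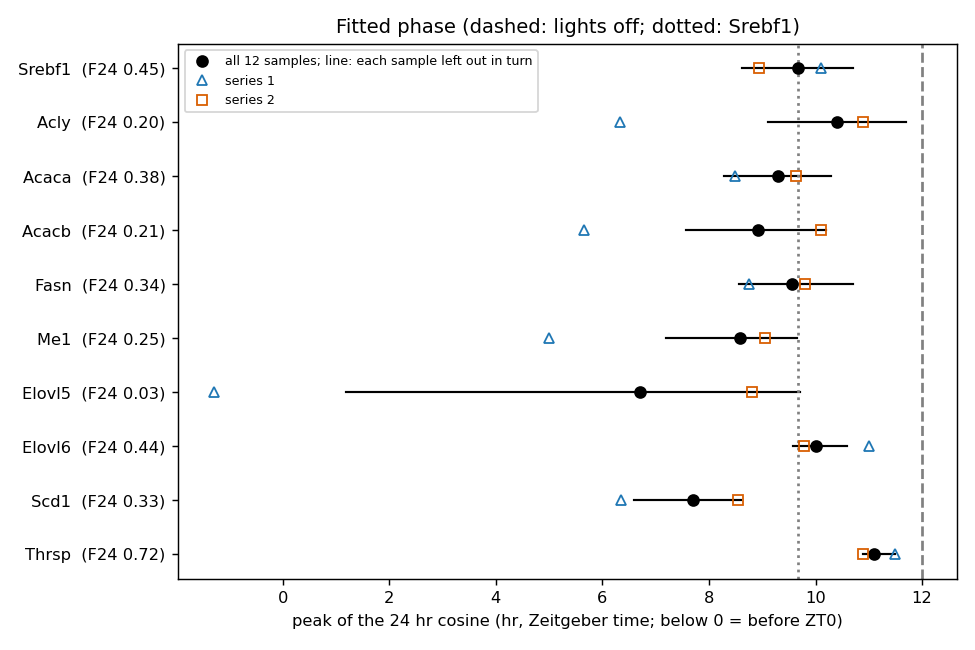
Peak of the fitted 24 hr cosine in hr of Zeitgeber time for each of the 10 genes, with F24 beside the name; black points use all 12 samples, black lines span the fits with each sample left out in turn, triangles and squares are series 1 and series 2 alone, the dashed line is lights off and the dotted line Srebf1. All black points lie before lights off, and Thrsp has the latest peak (11.1 hr) and a short range.

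To compare each profile with that of Srebf1, the log2(rpbp + 1) of Srebf1 was subtracted sample by sample. Thrsp minus Srebf1 was 0.71 and 0.32 (ZT2), 2.24 and 2.58 (ZT6), 3.67 and 4.33 (ZT10), 2.78 and 3.37 (ZT14), 3.21 and 3.41 (ZT18) and 2.38 and 0.53 (ZT22). The difference was lowest at ZT2 and highest at ZT10 in both series, and fell apart between them at ZT22. Its F24 was 0.722 with a permutation p of 0.00460 and an adjusted p of 0.223 over all other expressed genes, so that it failed the correction. With the limma cosine test on the same difference the adjusted p was 3.20e-06. Every gene is set against the same 12 Srebf1 values, so the tests over genes stand or fall together. On simulated data in which Srebf1 held a rhythm by chance, most genes made without a rhythm were called, and neither the adjusted p nor a number of genes called (0 by permutation with 1602 at an unadjusted p under 0.05, or 15.7%, and 646 by limma) is a secure guide here. None of the other 8 genes had a permutation p under 0.05 in this comparison (0.173 for Elovl6, the lowest, to 0.956 for Me1). Scd1 rose far more than Srebf1 between ZT2 and ZT6, from 2.60 to 6.04 and from 2.54 to 5.79, and was back at 3.02 and 2.51 at ZT14.

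**Figure D4:**
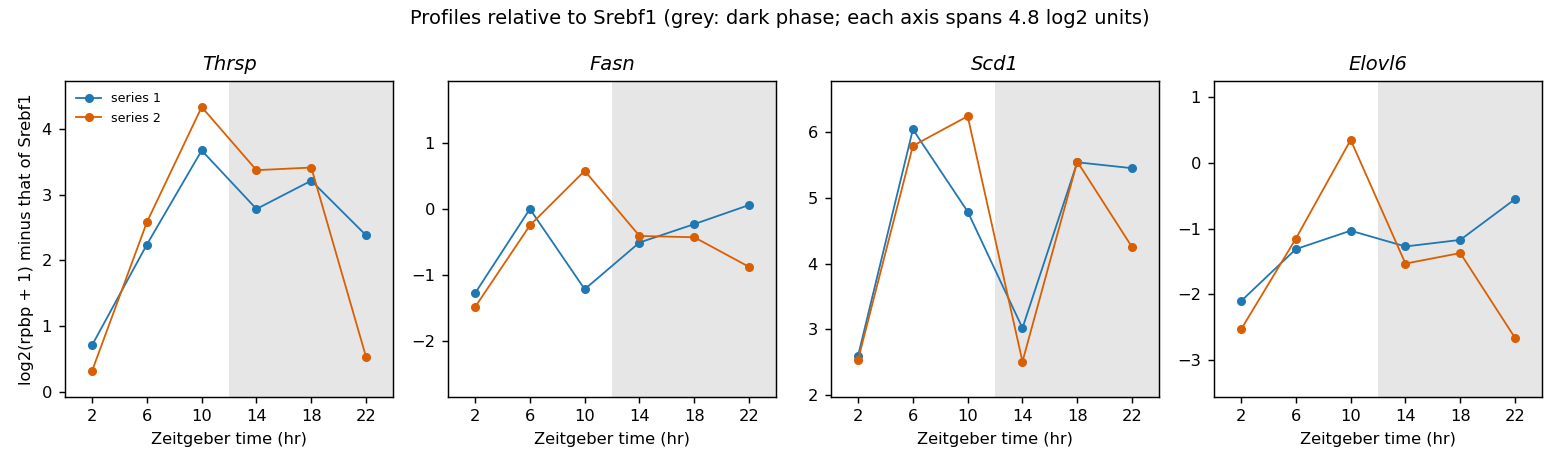
Difference of log2(rpbp + 1) between a gene and Srebf1 in the same sample (vertical axis, log2 units, the same span in each panel) against Zeitgeber time in hr for Thrsp, Fasn, Scd1 and Elovl6 in series 1 and series 2, with the dark phase in grey. Thrsp is highest at ZT10 in both series (3.67 and 4.33), Scd1 falls at ZT14 in both (3.02 and 2.51), and Fasn and Elovl6 part at ZT10.

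The 2 series differed in these genes more than in most. At ZT10, Me1 was at 174 and 650.4 rpbp, Elovl5 at 347 and 1222, Fasn at 138 and 462, and Scd1 at 8948 and 23462. The median ratio of series 2 to series 1 was 2.44 over the 10 genes and 1.01 over all expressed genes, and the share of all genes at 1.5-fold or more was 5.19%, against 9 of the 10 genes. At ZT22 the order was turned: 7 of the 10 genes were at least 1.5-fold higher in series 1 (4.43% of all genes), with Elovl6 at 143 and 44.3, Me1 at 311 and 116, and Thrsp at 1098 and 412, while Srebf1 was higher in series 2 (209.9 and 285). At ZT2, ZT6, ZT14 and ZT18 the median ratios were 1.00, 0.825, 0.799 and 0.749. Each ratio compares 1 sample with 1 sample and has no test, and differences between animals and between series cannot be told apart.

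**Figure D5:**
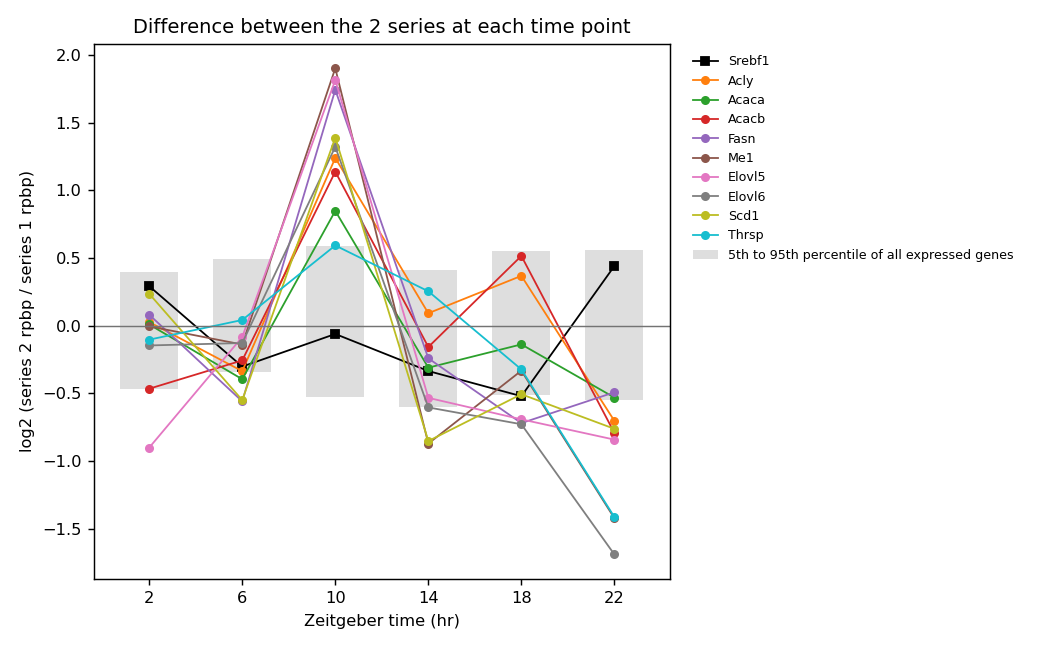
log2 of the value in series 2 over that in series 1 (vertical axis) at each Zeitgeber time in hr (horizontal axis) for the 10 genes; grey bars span the 5th to the 95th percentile of all expressed genes. At ZT10, 9 genes lie at or above the top of the bar (0.59) and Srebf1 lies near 0, and at ZT22 the same 9 genes lie below 0 and Srebf1 above it.

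The levels of the 10 genes were correlated over the 12 samples. Pearson's r of log2(rpbp + 1) was above 0 in all 45 pairs, from 0.41 to 0.96 with a median of 0.82, a description over samples that share their time of day. By the same measure over the 8952 genes with a mean of at least 8 rpbp, Fasn was closest to Idh1 (0.97), which also yields NADPH in the cytosol, then to Acaca (0.96), AW061290 (0.96), Mettl7b (0.96) and Rnd2 (0.95). Thrsp was closest to Slc25a13 (0.98), Rarres2 (0.97), Sord (0.97), Sar1b (0.97) and Timp3 (0.97), and Srebf1 to Adora1 (0.95), Klf15 (0.94), AK158055 (0.93), Cdk10 (0.93) and AK004512 (0.92). In likeness to Fasn the rest of the 10 genes ranked from 2 (Acaca) to 963 (Acacb). The ranks ran from 147 (Elovl6) to 1643 (Elovl5) for Thrsp, and from 24 (Fasn) to 2038 (Acacb) for Srebf1. No median of r was taken over pairs of all expressed genes.

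Of 40 further genes of the pathway, 37 passed the expression minimum, and G6pdx, Scd2 and Mbtps2 did not. Of the 37, 13 differed among time points (limma, adjusted p under 0.05, against 17.6% of all genes), 6 were called rhythmic (19.2%) and 15 had both ZT2 values below all others (9.58%). These counts are descriptions, since Ppargc1b, among the 13, and Pnpla3, among the 15, passed the expression minimum through 1 value each (8.16 rpbp at ZT6 and 8.32 rpbp at ZT10, both in series 2). None passed the test of dark against light (limma, adjusted), and 4 had an unadjusted p under 0.05, a share no higher than the 13.0% of all expressed genes. Among the elongases and desaturases, Fads1 and Fads2, which make polyunsaturated fatty acids, rose from ZT2 to ZT6 by 2.07- and 2.24-fold and by 2.47- and 2.49-fold (limma over time points, adjusted p = 0.0235 and 0.0242). Elovl3, which lengthens saturated chains, ran the other way: its ZT6 value was 0.129 and 0.0963 times that at ZT2, its peak was at 22.3 hr, and its F24 of 0.917 had an adjusted permutation p of 0.0227. In sugar supply, pyruvate kinase (Pklr) rose 3.96- and 4.38-fold from ZT2 to ZT6 (limma over time points, adjusted p = 0.0490).

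Among 14 expressed regulators, 4 passed the test among time points (limma, against 17.6% of all expressed genes, and nothing is read from so small a count): Nr1h2 (LXRβ, adjusted p = 0.0321), Srebf2 (the regulator of cholesterol synthesis, 0.0142), Ppargc1b (a coactivator of SREBP-1, 0.0185) and Mid1ip1 (a relative of Thrsp, 0.0350). Ppargc1b, with its other values between 2.04 and 6.08 rpbp, could be tested only because it was high in the ZT6 sample of series 2, and its p is no support for a difference. Nr1h2 had its highest mean at ZT2 (36.0 and 36.4 rpbp), where the 10 genes had their lowest. It stayed close to that level at ZT6 (34.9 and 35.0) and had its lowest mean at ZT14 (26.3 and 25.9). Mid1ip1 rose 2.09- and 2.10-fold from ZT2 to ZT6, and for Srebf2 the ratio was 0.891 and 0.868. Idh1 (1.52- and 1.51-fold from ZT2 to ZT6, adjusted p = 0.0349) and the acyl-CoA synthetases Acsl1 (0.0419), Acsl3 (0.0443) and Acsl5 (0.0349) passed as well, all with their lowest mean at ZT2.

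Total signal was nearly the same in all samples (1487469 to 1546116), samples of a time point had r of 0.975 to 0.987, and scaling by the median of ratios moved samples by factors of 0.971 to 1.04 only. The summed level of 6 hepatocyte markers was 90523 and 93377 rpbp at ZT2 and 133728 to 171683 in the other samples, and that of 5 Kupffer cell markers was 540.1 and 536 at ZT2 and 258 to 429 elsewhere, so both move with the ZT2 low; their part in it was not tested, and in bulk liver fewer cells of a type and less RNA per cell cannot be told apart. Most of the hepatocyte sum was Alb, which ran from 50445 to 122523 rpbp. The sum thus cannot tell a change in Alb mRNA from a change in hepatocyte content. Among hepatocyte markers Apoa1 and Serpina1a were highest in a ZT2 sample, so the lower sum was not shared by all. Of the adipocyte markers, which matter because Thrsp and Scd1 are also fat cell genes, Adipoq was at most 0.400, Plin1 0.0800 and Retn 0.880 rpbp, with 7, 10 and 9 samples listed at 0. Fabp4 ran from 16 to 36.5 rpbp, highest in the ZT10 sample of series 2, and Car3, which hepatocytes also express, from 1753 to 7421 rpbp. The sum of the 6 adipocyte markers found, nearly all of it Car3, was 2910.1 and 1777 rpbp at ZT2, 5381 and 7184 at ZT10 and highest in the ZT6 sample of series 2 (7475), and so moved with the 10 genes; its part in their changes was not tested. Cfd was at 0 in 7 samples, at 24.8 rpbp in its second highest sample and at 32.7 rpbp in the ZT10 sample of series 2. In that sample the sum of the 2 red cell markers found was also highest (857 rpbp against at most 584 elsewhere). This rested on Hbb-b1 (598 rpbp, second highest 369), while Alas2 was nearly level (258 and 256). The part of Cfd and these markers in the ZT10 difference was not tested.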

How the data were processed

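Poly(A) RNA-Seq of 12 livers was used, with groups from the sample labels. The authors mapped the reads to mm9 with TopHat (tools named in the submitters' processing notes: CASAVA 1.8 and TopHat), kept unique sequences and summed coverage over the merged exons of each gene, without regard to strand. The deposited signal is this coverage per base in rpbp, which the authors scaled to 10000000 sequences per sample. It was multiplied by 4 here, for a scale of 40000000. Columns headed ZT20 were read as the ZT22 of the sample labels. The deposited columns also hold the authors' F24 score (a fraction of the variance), phase and p-value, which were not used. The signal is no count of reads, so no counting interval is given. Genes needed 1 value above 8 rpbp.

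F24, phase and permutation p (10000 orders, seed 1, Benjamini-Hochberg) were computed in Python 3.11.15 with numpy 2.4.6, and log2(rpbp + 1) was fitted with limma 3.58.1 in R 4.3.3, across all 10198 expressed genes. The steps were tested on simulated data, where the comparison with Srebf1 called most unchanged genes when Srebf1 held a chance rhythm. The genes and lists were chosen with earlier results of these data known. Named genes are the 10 genes, the genes of the pathway list past an adjusted p, except 1 that is not reported here, and the 5 most correlated with Thrsp, Fasn and Srebf1. Alternatives changed the expression minimum, scaling, pseudocount, test and samples.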

Additional observations from a re-analysis of the deposited data

How the results depend on the processing

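Over both series the call of Thrsp as rhythmic was kept under every alternative of scale, scaling, expression minimum and test, and it was lost in series 1 alone; its F24 ran from 0.679 to 0.833 with samples or a series left out. The number of genes called rhythmic (1960) was 505 with an adjusted p in the call, 828 with the limma cosine test, and 286 to 2000.0 with samples or a series left out, and of the 10 genes 2 were called on either log2 scale (Thrsp and Elovl6) and 0 to 3 with samples left out. For dark against light, 19 genes were called without an expression minimum, 19 with the replicate block and 0 to 40 with samples left out, against 36, and none of the 10 genes under any of these. For a difference among time points, 3 of the 10 genes were called without an expression minimum and 3 to 10 with a sample left out, against 6, and 724 to 1676 genes against 1792 with a sample left out. Relative to Srebf1, limma called 646 genes, 1 of the 10 genes, with an adjusted p of 3.20e-06 for Thrsp, values that share the single Srebf1 profile and are no secure guide. The phase of Thrsp minus that of Srebf1 ran from 0.213 to 2.38 hr with samples left out. The causes were not tested. With samples left out or other size factors, checks chosen after seeing the data, the ZT2 values were lowest in 9 to 10 of the 10 genes and the 2-fold rise to ZT6 held in all 10. No called result turned its direction.

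Over all expressed genes, deviations of samples of the same series had r from -0.15 to 0.21 over 15 pairs of time points, 2 of them above 0.1, so the series numbers were not taken to pair the samples. With the replicate block, 4 of the 10 genes and 1395 genes in all differed among time points, and Acaca and Fasn missed the threshold.

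With 2 samples a time point, 1 sample decides many of these calls, and sampling each 4 hr limits how finely phases can be told. Values are mean coverage, so their counting error is not known.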
